A study of Mus musculus with 6 samples.

Results

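CD antigens and cytokine receptors are the surface proteins by which a macrophage reads its surroundings. They were examined here as a set of 82 Ago footprints on 26 genes, out of 6270 footprints on 2222 genes in all. Argonaute (Ago) HITS-CLIP recovers RNA cross-linked to Ago proteins, and a footprint is a short stretch of transcript around a peak of such reads. Footprints were taken where they overlapped, on its own strand in GENCODE vM1 (mouse build mm9), a gene named Cd with a number and at most 1 letter, or Tnfrsf, Ccr, Cxcr or Csf with any ending, or Il with a number, r and any ending. Of the genes with such names, Cd36, Cd93 and Csf1r, the receptor for M-CSF, were set aside. The annotation holds 165 other such symbols, and 139 of them had no footprint in the table. The middle of each of the 82 lay in an annotated 3′ UTR, and those nearest the stop codon on Cd44, Cd48, Cd53 and Il6ra reached back across it into coding sequence. The footprint of Il21r also overlaps coding sequence of another annotated transcript of that gene.

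The libraries came from bone-marrow-derived macrophages of C57BL/6 littermates aged 6 to 12 weeks, 3 from APOBEC1 KO mice and 3 from WT mice. APOBEC1 is an enzyme that edits cytidine to uridine in mRNA, and the question put by the design is whether Ago binding differs without it. Precursor cells of both genotypes were matured for 7 days in medium with 20 ng/mL M-CSF (40 ng/mL in replaced medium), so all samples were exposed to that cytokine. Ago was precipitated with the antibody 2A8. The part of Apobec1 removed in the KO mice is not stated in the labels. The deposited table gives 1 Ago occupancy per genotype, a ratio of footprint signal to RNA-Seq expression of the transcript, and counts, for KO and for WT, the libraries in which the footprint was seen. As the libraries are already combined, no difference below has a test or a replicate error, and depth is unknown. A log2 ratio of KO over WT of at least 1 in size (2-fold) therefore serves as the call, and the log2 ratio is the number in parentheses after a pair of values. In bulk cells, a site bound in fewer cells and a site bound less in each cell cannot be told apart.

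Of 9 macrophage markers, 7 carried footprints, among them Emr1, Itgam, Csf1r, Cd14, Lyz2 and Fcgr1, and the occupancy of the 7 summed to 5.23 in KO and 5.21 in WT. None of the markers listed for T cells (7), B cells (6), neutrophils (6) and fibroblasts (6) had a footprint, and of 6 for dendritic cells and osteoclasts only Nfatc1 had one, with 1.72 in KO and 1.25 in WT. A gene without a footprint may still be expressed.

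Cytokine receptors are built from a ligand-binding chain and, in many cases, a shared signalling chain. Interleukin and colony-stimulating factor receptors pass their signal to JAK kinases and STAT factors, TNF receptors to TRAF adaptors, and chemokine receptors to G proteins. CD antigens are a mixed class named for the antibodies that detect them, among them tetraspanins, adhesion molecules and ligands for receptors on T cells. Ago binds such transcripts through a miRNA, whose bases 2 to 8 (the seed) pair with a site usually found in the 3′ UTR.

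The sites that could place a miRNA within these footprints were searched first. A 7-nt match to the seed of any of 24 listed miRNA families was present in 16 of 82 footprints (19.5%), against 19.2% of all footprints. Of the 17 matches, 6 were followed by an A (an 8-nt site), and the 16 footprints lay on 11 genes. The matches belonged to 12 families. CTCAGGG for miR-125 was found in 3 footprints (3.66%, against 0.670% of all). TGCTGCT for miR-15/16, ACTGTGA for miR-27 and ATGCTGC for miR-103 were each found in 2 (2.44%, against 1.99%, 1.59% and 0.973% of all). Found once each were CTACCTC for let-7, TTTGCAC for miR-19, GGCAGCT for miR-22, AATGTGA for miR-23, CTGAGCC for miR-24, GTACTGT for miR-101, ACACTAC for miR-142-3p and AGCATTA for miR-155. The motifs of the other 12 families were searched in the same way and matched no footprint of these genes. They were GCACTTT for miR-17, ATAAGCT for miR-21, GTGCAAT for miR-92, TACTTGA for miR-26, TGGTGCT for miR-29, TGTTTAC for miR-30, CACTGCC for miR-34, ACTTTAT for miR-142-5p, AGTTCTC for miR-146, TGAATGT for miR-181, ATGTAGC for miR-221 and AACTGAC for miR-223. Motifs were read on the strand of the transcript, and those for miR-15/16 and miR-103 share 6 bases, so they can overlap. A match is a description of the letters and does not show that the miRNA was bound there.

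The mature miRNAs behind the families matched in more than 1 footprint, and behind the let-7 and miR-142-3p sites described below, are shown from RefSeq (build GRCm38.p6), 5′ to 3′ with the seed in capitals. All 24 names searched were found in that table.
miR-125a-5p: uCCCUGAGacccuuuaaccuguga
miR-16-5p: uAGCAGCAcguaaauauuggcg
miR-27a-3p: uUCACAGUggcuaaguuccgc
miR-103-3p: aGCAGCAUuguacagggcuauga
let-7a-5p: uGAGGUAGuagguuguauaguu
miR-142a-3p: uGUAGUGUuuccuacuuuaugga

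The target sites that the results below turn on are shown with their flanks, in mm9, on the strand of the transcript, with the 7-nt match in capitals. They are 5 of the sites of 8 nt, the sites in footprints past 2-fold that were above 0 in both genotypes, and the miR-15/16 site of Il10ra found in all 6 libraries.
Il7r, miR-125, chr15:9436184-9436213, minus strand: ttgattatattCTCAGGGactgcatgcaat
Il7r, miR-15/16, chr15:9436677-9436706, minus strand: catgattttccTGCTGCTattatccattgg
Tnfrsf1b, let-7, chr4:144804902-144804931, minus strand: cctgtctcttcCTACCTCagcctggagcac
Tnfrsf1b, miR-125, chr4:144804949-144804978, minus strand: cttcagggaatCTCAGGGactgtagagttc
Il10rb, miR-103, chr16:91425400-91425429, plus strand: agaacttcctgATGCTGCactggtacacac
Il10ra, miR-27, chr9:45063492-45063521, minus strand: tctgcagacctACTGTGAccagctagccag
Il10ra, miR-15/16, chr9:45062911-45062940, minus strand: ccattactcccTGCTGCTcactgttgtgac
Cd151, miR-142-3p, chr7:148656686-148656715, plus strand: cccactactgaACACTACtgacttagactg
Cd151, miR-103, chr7:148657303-148657332, plus strand: ctgtattccagATGCTGCccacaaatgctc
Il6ra, miR-22, chr3:89675047-89675076, minus strand: ggatggtacctGGCAGCTggcagggcacca
Cd44, miR-101, chr2:102651754-102651783, minus strand: atgataatgatGTACTGTgtctttgtgtaa

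As a set, these receptors were divided in direction. Median occupancy of the 82 was 0.367 in KO and 0.287 in WT, whereas the whole table had 0.377 in KO and 0.406 in WT. The median log2 ratio was 0.19 (quartiles -0.45 and 0.67), beside -0.04 (quartiles -0.96 and 0.76) over all footprints. In all, 49 footprints (59.8%) were higher in KO and 33 lower, where 48.7% of all footprints were higher. At least 2-fold higher in KO were 17 (20.7%, against 18.9% of all footprints), and 13 were at least 2-fold lower (15.9%, against 24.2% of all). The share higher was thus near that of the table and the share lower below it, without a test of either difference. The 3 footprints listed at 0 in KO, among them those on Cd84 and Il21r, count among the 13. By summed occupancy 15 genes were higher in KO (57.7%, against 47.8% of all genes) and 11 lower. Cd151 and Cd164 reached 2-fold upward (2 of 26 genes, against 11.7% of all genes), and Csf2rb2 and Il21r downward (2 of 26, against 17.9%). Past 2-fold the ratio of single footprints ran both ways in 5 genes, among them Tnfrsf11a, Cd44, Il6ra and Cd47. Another 10 genes had no footprint past 2-fold, and neither count was made over all genes.

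**Figure D1:**
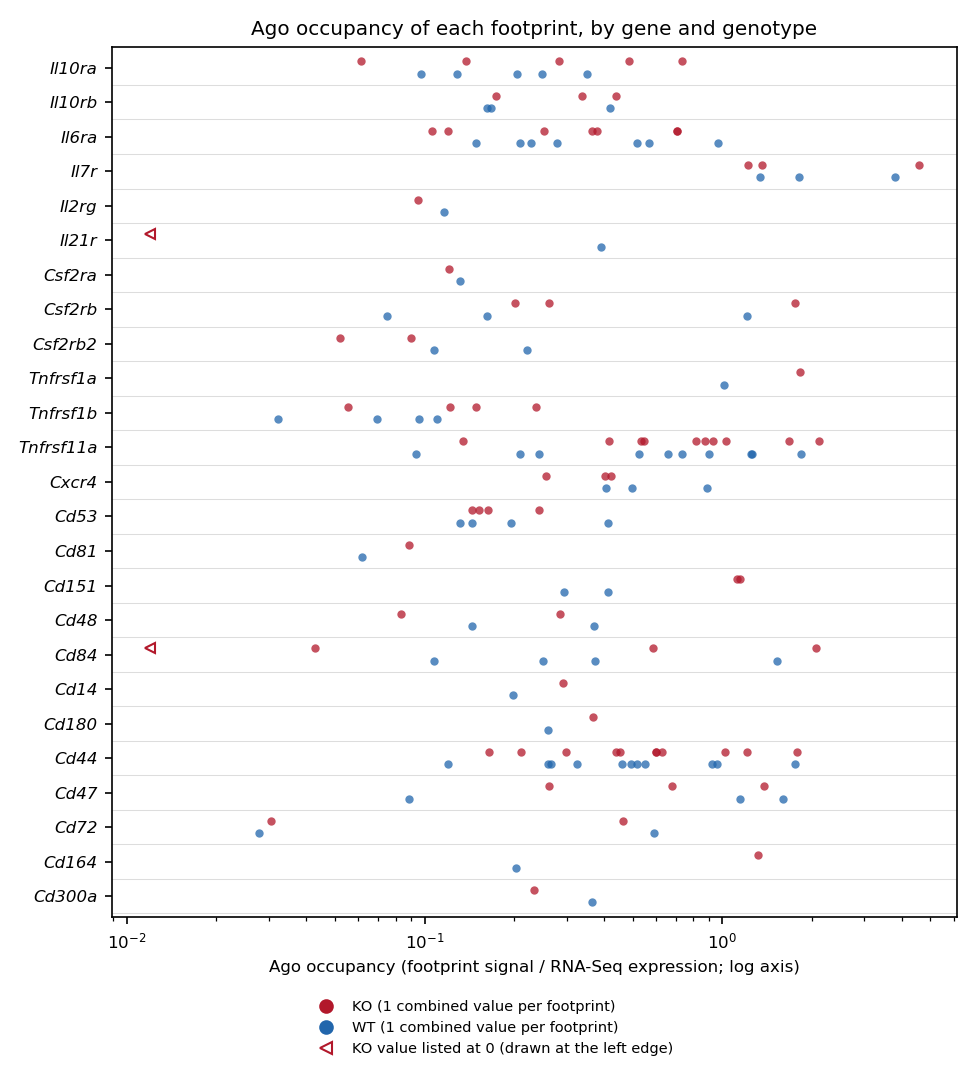
Ago occupancy (log axis) of 77 footprints on 25 genes, KO above WT, with 1 combined value per genotype and no error bars for lack of replicates. The strongest footprint is that of Il7r, at 4.56 in KO and 3.80 in WT, and open triangles at the left mark 2 footprints listed at 0 in KO.

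The interleukin receptors gave 20 footprints on 6 genes, with 3 at least 2-fold higher in KO and 2 lower, where 18.9% of all footprints were 2-fold higher and 24.2% lower. Il7r, the binding chain of the interleukin-7 receptor, held the strongest footprint of all 82, ranked 83 in the table by mean occupancy. That footprint, at 9436176 to 9436243 on chromosome 15, had 4.56 in KO and 3.80 in WT, was held by 2 KO and 3 WT libraries, and contains the 8-nt miR-125 site 10 nt from its middle. The next, at 9436653 to 9436731, had 1.36 in KO and 1.81 in WT, with the 8-nt miR-15/16 site at its middle. The third, nearest the stop codon, had 1.22 in KO and 1.34 in WT. The log2 ratios of the 3 ran from -0.41 to 0.26, so Il7r was high in both genotypes and within 2-fold at each site. Il2rg, the signalling chain that the receptors for interleukins 7 and 21 share, had a single weak footprint of 0.0948 in KO and 0.116 in WT. That footprint also overlaps an intron of Gm20489. Il21r, the binding chain for interleukin 21, was listed at 0 in KO and had 0.390 in WT, from 2 WT libraries and none in KO, with a miR-24 match 22 nt from the middle.

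Both chains of the receptor for interleukin 10, a cytokine that restrains macrophages, were higher in KO by sum, although for Il10ra the median over footprints after G+C centring was -0.16. Il10ra, the binding chain, had 5 footprints summing to 1.70 in KO and 1.03 in WT (log2 ratio 0.72). Most of that difference lay in 1 footprint, 124 nt past the stop codon (chromosome 9, 45063459 to 45063525), at 0.731 in KO and 0.204 in WT (1.83). It was held by 2 libraries of each genotype and carries the miR-27 match printed above. The footprint with the miR-15/16 match, at 45062880 to 45062945, was held by all 6 libraries, with 0.486 in KO and 0.352 in WT (0.47). Beside it, 45063040 to 45063104 had 0.283 in KO and 0.248 in WT, again in all 6. Il10rb, the chain shared with other receptors of the family, had 3 footprints in the far part of its 3′ UTR, 0.174 to 0.440 in KO, against 0.162 to 0.421 in WT. Only the one with the 8-nt miR-103 site was past 2-fold, with 0.339 in KO and 0.167 in WT (1.01), held by 3 KO and 2 WT libraries.

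Il6ra, the binding chain for interleukin 6, had 7 footprints spread over nearly its whole 3′ UTR of 1840 nt, with the highest ratio at the near end and the lowest at the far end. The footprint 12 nt from the stop codon (chromosome 3, 89675037 to 89675112) stood at 0.705 in KO and 0.279 in WT (1.33), with the miR-22 match. It was held by only 1 KO library and by 2 WT libraries. The one at the far end, 1798 nt from the stop codon (89673254 to 89673322), had 0.106 in KO and 0.567 in WT (-2.40), the lowest ratio among the members above 0 in KO. No KO library held the one at the far end, and its G+C content was 34.8%, against 52.6% in the first. In between, the strongest, 1086 nt from the stop codon, had 0.706 in KO and 0.965 in WT, also without a KO library. The footprint with the miR-155 match, 1607 nt from the stop codon, had 0.379 in KO and 0.515 in WT. The sums of 2.63 in KO and 2.91 in WT differed by a log2 ratio of -0.15.

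The receptor for GM-CSF pairs a binding chain, Csf2ra, with the signalling chain Csf2rb, and mice carry a close relative of Csf2rb, Csf2rb2, which serves interleukin 3. Csf2ra had 1 footprint of 0.121 in KO and 0.132 in WT. Csf2rb had 3, each higher in KO, with a sum of 2.21 in KO and 1.45 in WT (0.61). Its strongest, at 78181318 to 78181381 of chromosome 15, had 1.75 in KO and 1.21 in WT. Csf2rb2 had 2, each lower in KO, with a sum of 0.142 in KO and 0.329 in WT (-1.21), and no KO library held either. The 2 genes share stretches of sequence. A run of 35 nt of the Csf2rb footprint at 78180553 to 78180641, and one of 35 nt of the Csf2rb2 footprint at 78113700 to 78113778, occurs in the other gene, so reads there may have been split between them. The Csf2rb footprint at 78180739 to 78180828 shared at most 25 nt with the other gene. It was the only Csf2rb footprint past 2-fold, with 0.201 in KO and 0.0746 in WT (1.41). The strongest Csf2rb footprint shared at most 17 nt with the other gene, and the remaining Csf2rb2 footprint at most 10 nt.

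The 3 TNF receptor genes were all higher in KO by sum, though each by less than 2-fold. Of their 15 footprints 11 were higher in KO, 5 of them at least 2-fold, and 2 were at least 2-fold lower. Among all footprints 48.7% were higher, 18.9% at least 2-fold, and 24.2% at least 2-fold lower. The median log2 ratio of the 15 was 0.63, beside -0.04 over all footprints. Tnfrsf1a, the main receptor for TNF, had 1 footprint 416 nt from the stop codon (chromosome 6, 125312394 to 125312456) in all 6 libraries, with 1.82 in KO and 1.01 in WT (0.85). Tnfrsf1b, the second TNF receptor, had 4 weak footprints, with 0.237, 0.149, 0.122 and 0.0554 in KO against 0.0690, 0.0960, 0.0321 and 0.110 in WT in the same order. The first 3 were higher in KO, the first and the third past 2-fold, and the fourth was lower. The footprint with 0.149 in KO and 0.0960 in WT carries both the let-7 and the miR-125 site of 8 nt, within 69 nt, and was held by 2 libraries of each genotype. The let-7 site lies 16 nt from its middle, and the miR-125 site 31 nt from it, at the edge of the footprint.

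Tnfrsf11a encodes RANK, the receptor through which macrophage precursors become osteoclasts, and it had the highest summed occupancy of the 26 genes, with 10 footprints adding up to 9.07 in KO and 7.71 in WT. The first, 54 nt from the stop codon (chromosome 1, 107741462 to 107741527), stood at 2.11 in KO and 0.732 in WT (1.53), held by 3 KO and 2 WT libraries. Another at 107743176 to 107743248 had 1.03 in KO and 0.242 in WT (2.08), and its neighbour, with which it overlaps by 3 nt, 0.534 in KO and 0.210 in WT (1.34). Those 3 were the ones at least 2-fold higher in KO. At 107744050 to 107744119, toward the far end, the value was 0.544 in KO and 1.84 in WT (-1.75), with 1 KO and 2 WT libraries. At 107742066 to 107742132 it was 0.415 in KO and 0.900 in WT (-1.12), with no KO library. The footprint found in all 6 libraries, at 107743660 to 107743736, lay between, with 1.68 in KO and 1.25 in WT (0.43). G+C content was 57.6% in the first footprint and 28.6% in the one with the lowest ratio. None of the 10 held a seed match.

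**Figure D2:**
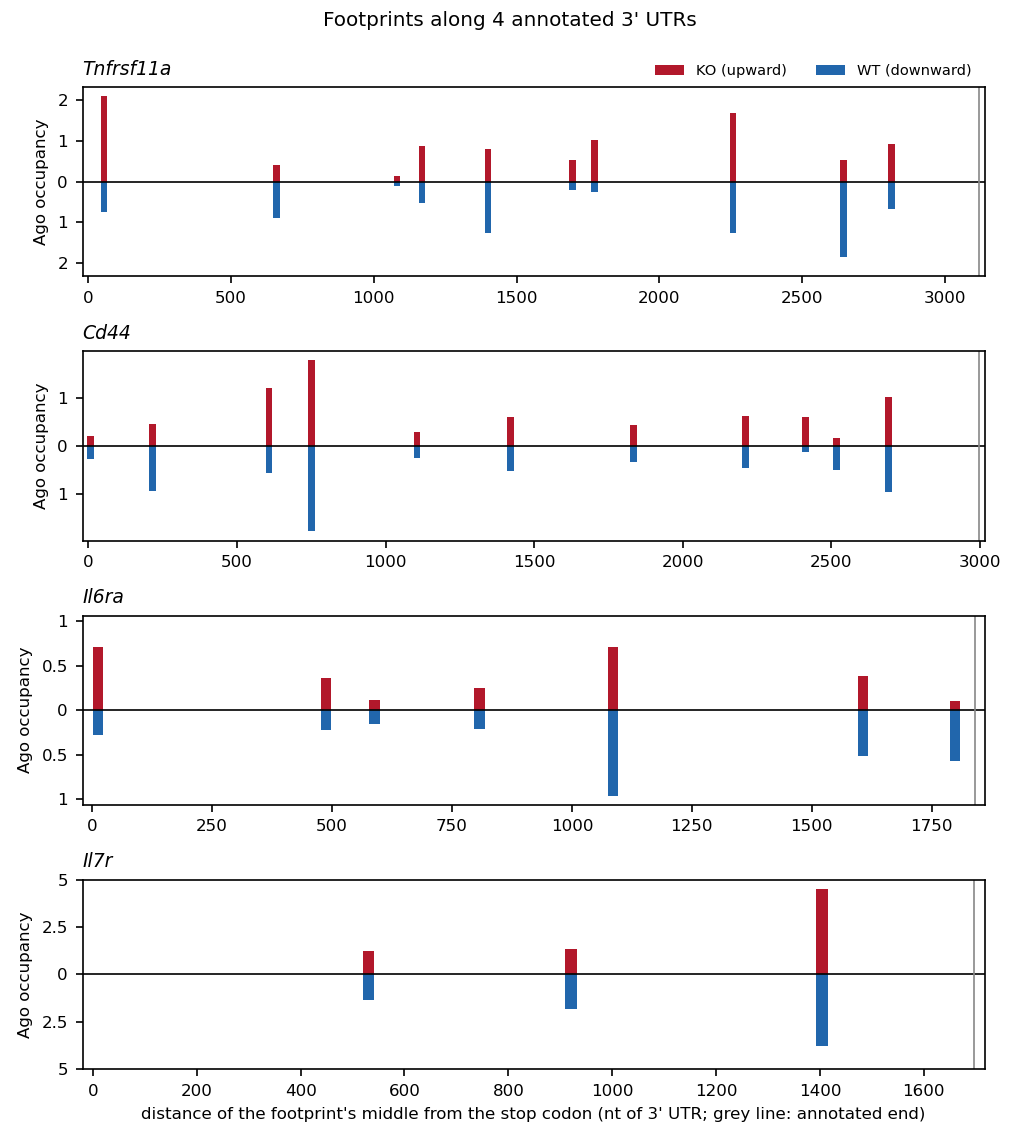
Footprints of Tnfrsf11a, Cd44, Il6ra and Il7r along the annotated 3′ UTR, by distance of the footprint's middle from the stop codon in nt, with Ago occupancy in KO upward and in WT downward. In Tnfrsf11a the first footprint is taller in KO (2.11 in KO and 0.732 in WT) and the one at 2644 nt taller in WT (0.544 in KO and 1.84 in WT), while the 3 of Il7r are within 2-fold.

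Among chemokine receptors, Cxcr4, the receptor for CXCL12, had 3 footprints, with 0.423, 0.255 and 0.403 in KO against 0.888, 0.407 and 0.498 in WT in the same order. Each was lower in KO, the first past 2-fold (-1.07), and the sums were 1.08 in KO and 1.79 in WT (-0.73). No KO library held the first or the last of these, although the table gives them KO values above 0.

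Of the 7 footprints of tetraspanins, which organise membrane domains, 6 were higher in KO (48.7% of all footprints were). At least 2-fold higher were 2, both on Cd151 (18.9% of all), and 1, on Cd53, was at least 2-fold lower (24.2% of all). Cd151 had 2 footprints at either end of its 3′ UTR (chromosome 7), and both were at least 2-fold higher in KO. The one at 148656679 to 148656741, with the miR-142-3p match, had 1.15 in KO, against 0.414 in WT (1.47), and the one at 148657296 to 148657365, with the miR-103 match, had 1.12 in KO and 0.295 in WT (1.92). They were held by 3 and 2 KO libraries and by 2 WT libraries each. Cd53 had 4 footprints with 0.152, 0.144, 0.163 and 0.242 in KO against 0.132, 0.413, 0.144 and 0.195 in WT in the same order. The second was past 2-fold (-1.51), and the sum, 0.700 in KO and 0.884 in WT, was lower in KO only through it. Cd81 had 0.0884 in KO and 0.0619 in WT.

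Cd48 and Cd84, both on chromosome 1 and members of the SLAM family of immune-cell adhesion receptors, had 6 footprints, of which 4 were lower in KO and 2, both of Cd84, at least 2-fold, where 51.3% of all footprints were lower and 24.2% at least 2-fold. Cd84 held the second strongest of all 82 footprints, at 173819318 to 173819380, with 2.06 in KO and 1.53 in WT (0.43). It was held by 3 KO and 2 WT libraries, and no KO library held the other 3 of Cd84. Those had 0.0428, 0 and 0.585 in KO against 0.108, 0.249 and 0.373 in WT in the same order. Cd48 had 0.0835 and 0.284 in KO against 0.144 and 0.371 in WT. The inhibitory receptor Cd300a had 1 footprint in 3 KO and 2 WT libraries, with 0.234 in KO and 0.365 in WT (-0.64).

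Cd14 and Cd180, which work beside Toll-like receptors in sensing lipopolysaccharide, had 1 footprint each. Cd14 had 0.291 in KO and 0.198 in WT (0.55), and Cd180 had 0.369 in KO and 0.259 in WT (0.51). Neither reached 2-fold, and both were held by at least 2 libraries of each genotype.

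Cd44, the receptor for hyaluronan, had the most footprints of the set, 11 along a 3′ UTR of 2995 nt. They spanned 0.164 to 1.78 in KO, against 0.12 to 1.76 in WT, and the sums were 7.40 in KO and 6.63 in WT (0.16). The strongest, 751 nt from the stop codon (chromosome 2, 102653510 to 102653574), stood at 1.78 in KO and 1.76 in WT and was held by all 6 libraries. Around it the ratios spread widely. The footprint at 102651842 to 102651919 had 0.598 in KO and 0.12 in WT (2.30), and 102653650 to 102653723 had 1.21 in KO and 0.551 in WT (1.13). Both were held by only 1 WT library. On the other side, 102651743 to 102651809, with the miR-101 match, had 0.164 in KO and 0.494 in WT (-1.59) without a KO library, and 102654046 to 102654111 had 0.453 in KO and 0.924 in WT (-1.02). The other 7 were within 2-fold. Cd44 also held the 3 footprints of the set longer than 100 nt (274, 206 and 185 nt), each in 2 KO and 3 WT libraries.

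Cd47, the signal by which cells avoid being engulfed, showed the widest range of ratios within a gene among footprints above 0 in KO. Its 3 footprints lay within 600 nt on chromosome 16, and the middle one (49911371 to 49911455) had 0.675 in KO and 0.0890 in WT. Its log2 ratio of 2.90 was the highest of the set. Upstream of it, 49911151 to 49911215 had 0.261 in KO and 1.15 in WT (-2.13). Downstream, 49911677 to 49911750 had 1.38 in KO and 1.6 in WT (-0.21). The upstream footprint was held by 1 KO and 3 WT libraries, the middle one by 2 of each genotype and the downstream one by 1 KO and 2 WT. G+C content was 47.1% in the middle footprint, 30.8% in the upstream one and 29.7% in the downstream one. Cd164, a sialomucin of endosomes and the cell surface, had 1 footprint (chromosome 10, 41249894 to 41249966) with 1.32 in KO and 0.203 in WT (2.69), held by 2 KO libraries and 1 WT library. Cd72, a C-type lectin, had a footprint in all 6 libraries with 0.463 in KO and 0.591 in WT (-0.35), and a weak one of 0.0305 in KO and 0.0277 in WT.

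**Figure D3:**
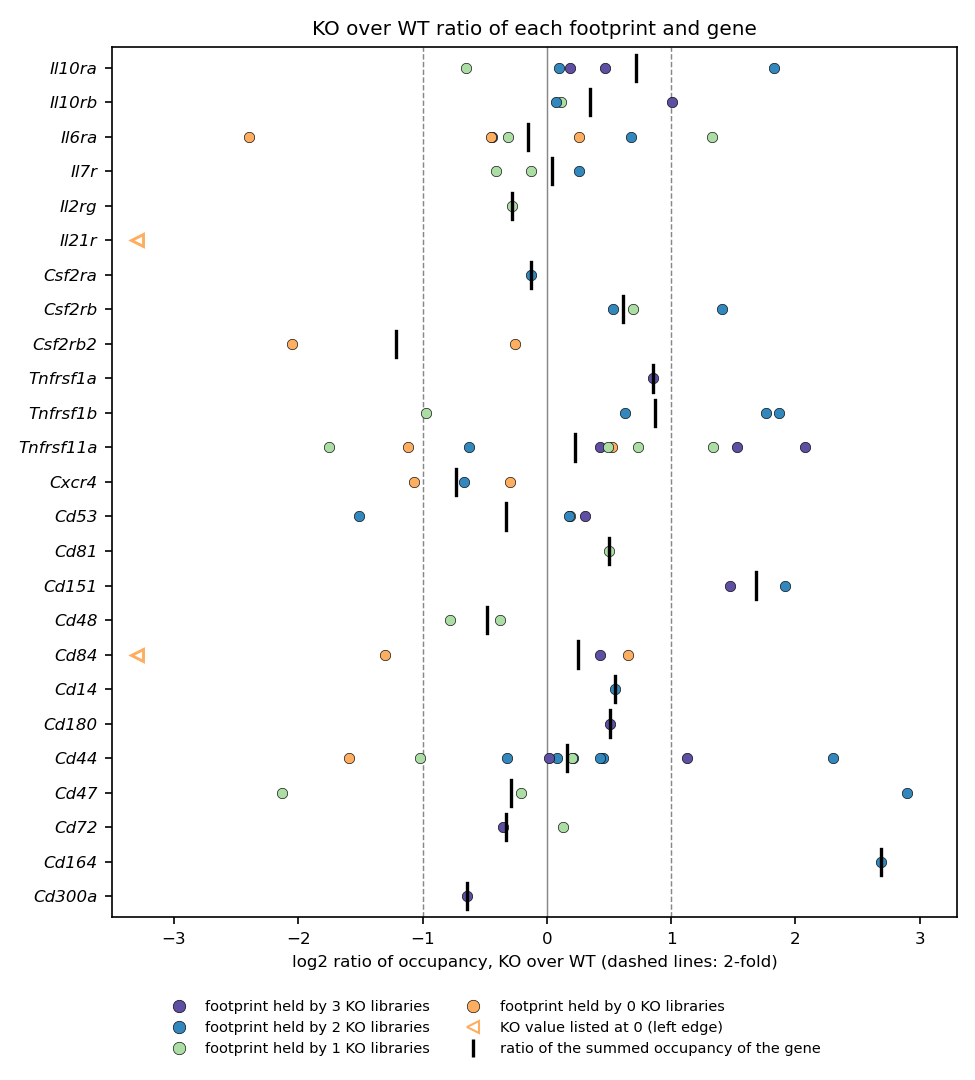
Log2 ratio of KO over WT occupancy of the same 77 footprints by gene (points, coloured by the number of KO libraries that held it), with the ratio of the summed occupancy as a black bar and 2-fold as dashed lines. Cd151 and Cd164 lie to the right of 1 at each footprint, Cxcr4, Cd48 and Csf2rb2 to the left of 0, and Cd47 spans -2.13 to 2.90.

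Ratios differed between sites of the same transcript. Of the 13 genes with at least 3 footprints, 10 (76.9%) had some higher and some lower in KO, as did 86.8% of the 760 such genes in the table. Among footprints above 0 in KO, the median range of log2 ratios within a gene was 1.82 over 17 genes here, and 2.07 over 1150 genes in the table.

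Library support moved with the ratio, and its part in the results was not tested. At least 2 KO libraries held 42 of the 82 (51.2%, against 40.1% of all footprints) and at least 2 WT libraries 77 (93.9%, against 94.9%). Entry into the table requires 2 libraries of 1 genotype, and 40 of the 82 entered through WT alone (48.8%, against 59.9% of all) and 5 through KO alone (6.1%, against 5.12%). Of the 17 at least 2-fold higher in KO, 14 were held by at least 2 KO libraries, and of the 13 lower, 9 were held by none. Over all footprints the same counts were 809 of 1184 and 1054 of 1518. The median log2 ratio was 0.49 in the 16 footprints with 3 KO libraries, 0.44 in the 26 with 2, -0.13 in the 25 with 1 and -1.12 in the 15 with none. Over all footprints the same medians were 0.53, 0.55, -0.04 and -1.32. The table lists KO values above 0 for 12 of the 15, and the labels do not say how these arose. All 6 libraries held 7 of the footprints (8.54%, against 5.89% of all), 2 of Il10ra and 1 each of Tnfrsf1a, Tnfrsf11a, Cd44, Cd53 and Cd72. Of these 7, 6 were higher in KO, with log2 ratios from -0.35 to 0.85 and none past 2-fold. Of the 369 in the table, 56.9% were higher and 41 were past 2-fold in either direction, with log2 ratios from -1.99 to 1.88.

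**Figure D4:**
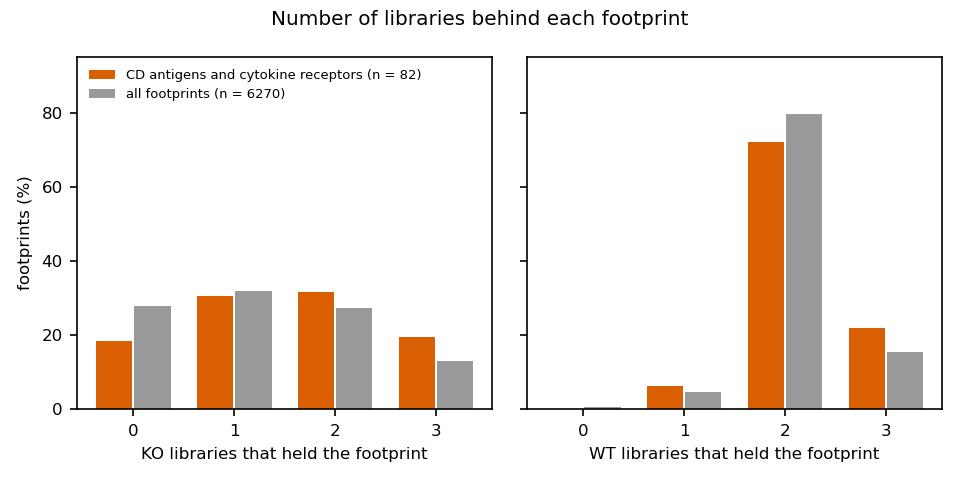
Share of footprints (%) held by 0 to 3 KO libraries (left) and 0 to 3 WT libraries (right), for the 82 footprints of CD antigens and cytokine receptors and for all 6270. The receptors have 18.3% held by no KO library, against 27.9% of all footprints, and 19.5% held by 3, against 12.9%.

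Base composition moved with the ratio too, and its part in the results was not tested. Median G+C content was 44.2% here and 42.9% in the table. The 17 footprints at least 2-fold higher in KO had a median of 47.1%, and the 13 lower one of 36.4%. With the 10 equal bins of G+C content in the table taken as 3 classes, the median log2 ratio was -0.07 in the 22 footprints of the lowest 3 bins, 0.21 in the 38 of the middle 4 and 0.55 in the 22 of the highest 3. Over all footprints it was -0.56, -0.01 and 0.44. When the median of all footprints in the same bin was subtracted, the median of the 82 was 0.34. Ranked across footprints, which share libraries and transcripts, ratio and G+C content had a Spearman's rho of 0.243 (n = 82), beside 0.325 (n = 6270).

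**Figure D5:**
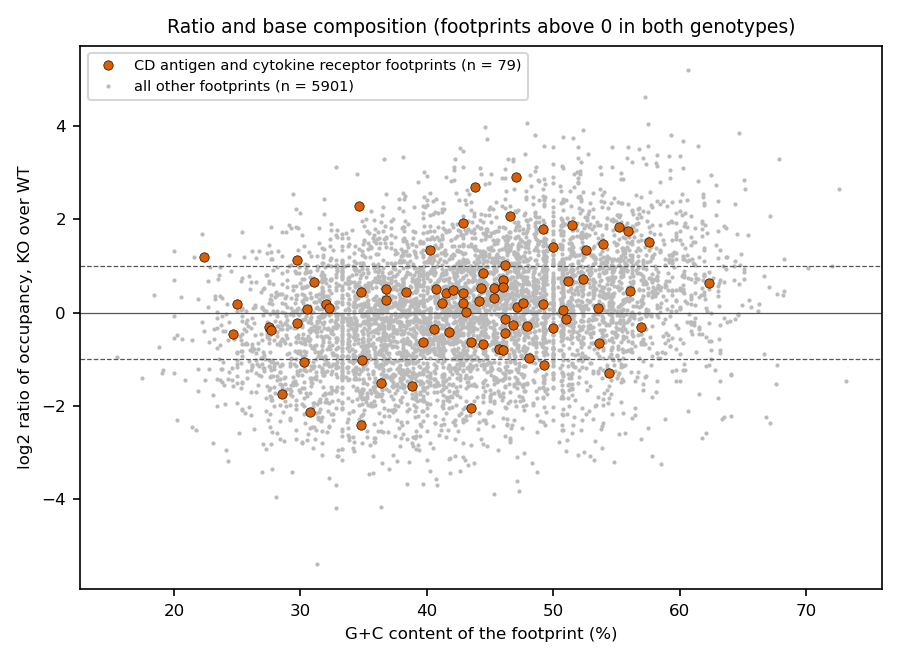
Log2 ratio of KO over WT occupancy against G+C content (%) for the 79 receptor footprints above 0 in both genotypes (orange) and the 5901 others (grey), with 2-fold as dashed lines. The orange points lie within the grey cloud, and the points of both colours lie higher on average where G+C content is high (medians of 0.55 and 0.44 in the highest class of the 82 and of all 6270 footprints).

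Footprints with a seed match had a median log2 ratio of 0.36, and those without one 0.15, where both medians were -0.04 over all footprints. Of the 16, 10 were higher in KO, 5 (31.2%) at least 2-fold, on Cd151, Il10ra, Il10rb and Il6ra, and 2 (12.5%) were at least 2-fold lower, on Cd44 and Il21r. Among all footprints with a match 18.7% were 2-fold higher and 23.8% lower. At least 2 KO libraries held 62.5% of the 16 (51.2% of the 82), against 43.6% of all footprints with a match. The part of library support in these values was not tested. The pentamer ATTTA of AU-rich elements, read on the transcript strand, occurred in 7 of the 82 footprints (8.54%), against 11.9% of all. In position, the footprints lay a median of 46.1% of the 3′ UTR length from the stop codon, against 45.6% in the table.

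Of 46 genes listed as signalling partners of these receptors, inhibitors of the signal among them, 17 had footprints (36 in all). By sum 5 of the 17 were higher in KO and 12 lower, where 47.8% of all genes were higher. At least 2-fold higher were 2 of 17 and lower 3 of 17, against 11.7% and 17.9% of all genes. Of these, Ptpn6, a phosphatase that damps cytokine receptors, with 1.62 in KO and 0.30 in WT (2.43), and the TNF receptor adaptor Traf3 (2.33) were at least 2-fold higher in KO. Lower were the STAT inhibitor Pias1 with 0.137 in KO and 1.08 in WT (-2.97), the ubiquitin ligase Cblb (-1.54) and Stat3, the factor downstream of the receptors for interleukins 6 and 10 (-1.02). No KO library held the Pias1 or Cblb footprint. The single footprint of Traf3 was held by 2 KO libraries and 1 WT library, and that of Stat3 by 1 KO and 2 WT libraries. Il6st, the signalling chain that partners Il6ra, had 8 footprints summing to 3.78 in KO and 3.84 in WT, and the kinase Jak1 had 0.446 in KO and 0.270 in WT. Taken over the 36 footprints, the median log2 ratio was -0.11.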

How the data were processed

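Per the series design text, the authors separated Ago HITS-CLIP reads into mRNA and miRNA pools by length, aligned them to mm9 and normalized each footprint to the RNA-Seq expression of its transcript. The submitters' processing notes name Bowtie 0.12.8 and bedtools. Ago occupancy was deposited as a ratio, with 1 value per genotype and the number of libraries that held the footprint. Clusters needed at least 8 reads, so weakly bound genes may be missing. Not given in the sources used here are how 3 libraries became 1 value, the unit of the divisor and the handling of library size. An exact value was shared with another footprint by 16 of the 82 KO values (19.5%, against 31.7% of all) and 9 of the WT values (11%, against 18.6%). Among the shared KO values were those of the Cd47 footprint with the highest ratio and of the Cxcr4 footprint past 2-fold. So were those of the Il6ra footprints with the highest and the lowest ratio, and the latter had a shared WT value too. The same held for the KO values of Cd44 at 102651743, Csf2rb at 78180739 and Tnfrsf11a at 107742066, all past 2-fold.

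Footprints (BED, converted to start at 1) were placed on GENCODE vM1 and NCBIM37, the same assembly as mm9, with pysam 0.24.0. Log2 ratios used a pseudocount of 0.00161 (50% of the smallest value above 0), which understates differences of weak footprints. A footprint past 2-fold counted as called, and genes were compared by sums. No p-value was computed. Some items are counted in totals but not reported here. Methods were tested on simulated data. Every member gene could be named, and other genes only from lists. Single footprints were to be described where strongest in their gene, past 2-fold at or above the table's median occupancy, held by all 6 libraries or with a seed site, and others (such as the highest ratios of Cd47 and Cd44, and those of Tnfrsf1b) were picked with their values in view, after the data were seen. The members and lists were chosen with earlier results of these data known. Alternatives were another pseudocount, filters on occupancy and library support, G+C centring, and the strongest footprint per gene.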

Additional observations from a re-analysis of the deposited data

How the results depend on the processing

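No paired analysis was possible because the table holds 1 combined value per genotype, and no library could be left out in turn. With a pseudocount of 1 the median log2 ratio was 0.04, and 0 footprints and 0 genes were past 2-fold in either direction (over all footprints, 1.66% were higher and 2.03% lower). Of the 35 footprints whose mean reached the median of the table, 0.425, 9 were higher and 5 lower, against 20.9% and 20% of all such footprints. Of the 37 seen in 2 or more libraries of KO and of WT, 11 were higher and 1 lower, against 26.2% and 5.01%. Their median was 0.45 (0.42 over all such footprints). Keeping only footprints with at least 1 library of both genotypes was an alternative chosen after seeing the data. It left 17 of 67 higher and 4 lower, against 24.9% and 10.3% of all such footprints. The median was 0.26 (0.28 over all). Both sets chosen on library numbers drop footprints with no KO library by construction. By strongest footprint, 5 genes were higher, with Il10ra and Tnfrsf1b among those added, and 4 lower, with Cd53 and Cxcr4 added. Without values listed at 0, which removes Il21r, 1 gene was lower. No share over all genes is given for these gene counts, so they cannot be weighed against the table. After G+C centring 16 footprints were higher and 14 lower, against 19.1% and 22.3% of all. For genes, the centred median over footprints replaced the sum, and no gene called by its sum changed its call. The sign turned in 7 genes not called (among them Cd47, Cd53, Cd84, Il10ra, Il6ra and Il7r). Before centring, the median over footprints already had the turned sign in Cd53 (0.19), Cd84 (-0.44) and Il7r (-0.13). In Cd47, Il10ra and Il6ra it had the sign of the sum until centred. What lies behind the link with G+C content was not tested. An 8-nt site was present in 5 footprints (6.1%, against 7.66% of all) and a 6-nt site in 39 (47.6%, against 48.6%). A 7-nt site between 24 nt before and 22 nt after the footprint's middle was present in 14 (17.1%, against 13.9%). At least 1 KO library held 67 footprints (81.7%, against 72.1% of all) and all 3 held 16 (19.5%, against 12.9%). Limits to 3′ UTR footprints, above 0 in both genotypes, centring on the table median and leaving out Cd44 kept the median between 0.19 and 0.23.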
